A study of Vitis vinifera and Vitis vinifera
Schisandra chinensis with 13 samples.

Results

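The genes described here are a class IV chitinase locus, MSTRG.16268, and a pair of loci annotated with the response to biotic stimulus, MSTRG.395 and MSTRG.400. They are 3 of the 25819 genes in the deposited expression table, and they were chosen by name because their levels differed between the groups compared here. Their level in the hybrids against the controls is therefore given as a description, with no test. Vs hybrids are scions of the grape *V. vinifera* 'Hongruibao' on wild *S. chinensis* rootstocks, and Vv plants are 'Hongruibao' on its own roots, also made by grafting. Samples were taken 25 years after grafting, at harvest, from plants of one area that received no special treatment. Leaf, phloem and ripe berry RNA of each plant was pooled into 1 RNA-seq library, with 3 separate plants per group, and the values do not show in which organ a difference arose. In such mixed samples fewer cells of a type and less RNA per cell cannot be told apart. The groups differ in the rootstock species, so effects of the rootstock, of the graft union and of a lasting change in the scion cannot be told apart. The study also gives earlier flowering and fruiting times for Vs hybrids than for Vv plants, and sampling when fully ripe. The time of ripening therefore cannot be told apart from the rootstock either.

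Chitinases (EC 3.2.1.14) cut chitin, the polymer of fungal cell walls and insect cuticle, which plants do not make. Class IV chitinases are pathogenesis-related proteins of plants, and in grape they are among the abundant soluble proteins of the ripening berry. Plant genes of this kind often stand in tandem arrays of similar copies, and chitin fragments are sensed at the cell surface by LysM receptor kinases such as CERK1. The term response to biotic stimulus is given to genes by sequence similarity, and in plants it covers PR-10 proteins of the Bet v 1 fold and MLO membrane proteins.

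MSTRG.16268 joins the neighbouring locus tags VIT_05s0094g00330 and VIT_05s0094g00340 of chromosome 5 in one assembled locus, and one of them is described as a class IV chitinase. Its level was 0.239, 0.273 and 0.623 FPKM in Vs hybrids 1 to 3, against 717, 1645 and 1759 FPKM in Vv plants 1 to 3. FPKM is the number of fragments scaled to transcript length and to the mapped reads of the library, so it can be compared between genes. The groups were far apart, with every Vs library below 1 FPKM and every Vv library at 717 FPKM or more. The mean was 0.378 ± 0.213 FPKM in Vs hybrids and 1373 ± 572 FPKM in Vv plants (SD, n = 3 each). Ordered by level, the chitinase stood at places 19053, 18232 and 15582 of the 25819 genes in the Vs libraries and at places 46, 22 and 24 in the Vv libraries. It alone held 0.155%, 0.358% and 0.400% of the summed FPKM of the Vv libraries. The difference of the group means of log2(FPKM + 1), Vs minus Vv, was -9.87, the most negative of the 15447 genes that averaged 1 FPKM or more.

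MSTRG.395 (VIT_01s0011g05150, chromosome 1) is annotated with the response to biotic stimulus and with defense response, and its product is otherwise described as uncharacterized. It was at 2.65, 2.42 and 0.0684 FPKM in the Vs hybrids, against 85.9, 122 and 64.4 FPKM in the Vv plants. Vs hybrid 3 was far below the other Vs hybrids, and the groups did not overlap. The log2 difference was -5.22, the fifth most negative of all tested genes. In the order of log2 differences it lay between MSTRG.952, also annotated with defense response, at -5.50, and *PIN1AT* (MSTRG.14879), a peptidyl-prolyl isomerase, at -5.21.

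MSTRG.400 carries the same 2 annotations and joins the tags VIT_01s0011g05110 and VIT_01s0011g05140. It was at 44.1, 58.3 and 49.3 FPKM in the Vs hybrids, against 495, 725 and 1953 FPKM in the Vv plants. The Vs hybrids were alike and the Vv plants were spread more widely, with Vv plant 3 highest. Its transcripts were not lost in Vs hybrids: the gene held places 1120, 903 and 1106 of 25819 there, within the upper levels of the library, and places 70, 52 and 21 in Vv plants. The log2 difference was -4.12, at place 20 from the most negative. The order of the members was thus not the same in the 2 groups: in Vs hybrids MSTRG.400 was highest, MSTRG.395 came next in Vs hybrids 1 and 2 and the chitinase was lowest there, while in Vv plants 1 and 2 the chitinase was highest. In Vv plant 3, MSTRG.400 was above the chitinase.

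**Figure D1:**
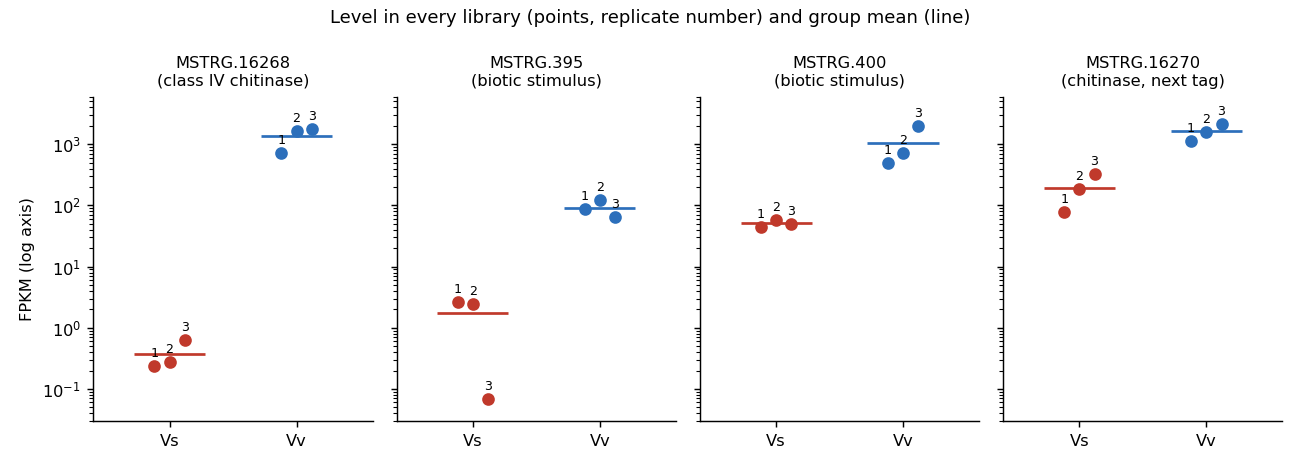
FPKM of the 3 members and of the chitinase gene at the next locus tag, MSTRG.16270, on a log axis, with Vs hybrids left and Vv plants right in each panel. Points are libraries with their replicate number and lines are group means. MSTRG.16268 lies between 0.239 and 0.623 FPKM in Vs hybrids, whereas MSTRG.400 and MSTRG.16270 stay above 44 FPKM in every Vs library.

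All 3 members were among the 68 genes called at an adjusted p under 0.05 by limma, which are 0.44% of the 15447 genes tested (34 higher and 34 lower in Vs hybrids, 0.22% each). They were chosen from this contrast, so nothing is read from that. Most genes leaned the same way, since 67.5% of tested genes had a log2 difference below 0 and the median over all of them was -0.25. This median moved to -0.01 when the libraries were scaled by median ratios, so values below are to be read against -0.25. Nearest to the chitinase in the order was MSTRG.1533, a chlorophyll a-b binding protein gene listed at 0 in every Vs library and at 658, 434 and 94.9 FPKM in Vv plants. Next to MSTRG.400 in the order were MSTRG.17189 at -4.14 and MSTRG.396 at -4.003, the second of which stands in the same array as MSTRG.400.

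The chitinase locus stands among other chitinase genes, which permits a comparison at the same place of the genome. MSTRG.16270, at the next tag, VIT_05s0094g00350, is annotated with chitin binding and the same enzyme number. It was at 77.0, 185 and 325 FPKM in Vs hybrids, against 1143, 1602 and 2109 FPKM in Vv plants. All Vs libraries were below all Vv libraries, as in 26.2% of tested genes. The log2 difference was -3.23 (SE 0.58, adjusted p = 0.101 from limma), so it did not pass the test. MSTRG.16269, an unannotated locus with the same tag, was at 7.50, 28.6 and 43.3 FPKM in Vs hybrids, against 169, 264 and 302 FPKM in Vv plants (log2 difference -3.42, adjusted p = 0.106). These loci share one tag and kept a like proportion, MSTRG.16270 being 6.46 to 10.3 times MSTRG.16269 in Vs libraries and 6.08 to 6.98 times in Vv libraries, and they cannot be taken as separate measurements.

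In Vv plants the chitinases MSTRG.16268 and MSTRG.16270 were at like levels, and in Vs hybrids they were not. The level of MSTRG.16268 divided by that of MSTRG.16270 was 0.00310, 0.00147 and 0.00192 in Vs hybrids, against 0.627, 1.03 and 0.834 in Vv plants. This within-library ratio does not depend on the scaling of the libraries. The chitinase genes of the scaffold are 11 loci, and their FPKM together was 103, 194 and 349 in Vs hybrids, against 1875, 3254 and 3878 in Vv plants. MSTRG.16268 made up 0.232%, 0.141% and 0.179% of that sum in Vs hybrids, against 38.2%, 50.5% and 45.3% in Vv plants. What remained in Vs hybrids was for the most part MSTRG.16270, at 74.6%, 95.5% and 93.3% of the sum.

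The other chitinase loci of the scaffold were low in both groups. MSTRG.16266 (VIT_05s0094g00300) was at 8.13, 0.0916 and 17.3 FPKM in Vs hybrids, against 0.144, 0.193 and 2.12 FPKM in Vv plants, with overlapping groups (log2 difference 1.81, adjusted p = 0.355). MSTRG.16271, which joins the tags VIT_05s0094g00360 and VIT_05s0094g00370, was at 8.47, 2.93 and 2.26 FPKM in Vs hybrids, against 3.83, 3.10 and 4.13 FPKM in Vv plants (log2 difference 0.08, adjusted p = 0.918, with a sign that turned when Vs hybrid 1 or Vv plant 2 was left out). Neither passed the test. MSTRG.16267, at the tag just before the member, had a mean under 1 FPKM and was not tested. Further on, the membrane protein gene MSTRG.16273 was at 9.61, 8.13 and 9.53 FPKM in Vs hybrids, against 8.99, 9.21 and 10.9 FPKM in Vv plants, and the RNA-binding protein gene MSTRG.16272 had a log2 difference of -0.40 (adjusted p = 0.365).

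Over the whole stretch within 50 tag places on either side of the chitinase, 63 loci were listed and 34 were tested. None was called by limma, and 7 had an unadjusted p under 0.05, as 20.9% of all tested genes did. Their median log2 difference was -0.16, against -0.25 over all tested genes. In 8 of the 34, all Vs libraries were below all Vv libraries, against 26.2% of all tested genes. The most negative differences were those of the adjoining loci MSTRG.16269 and MSTRG.16270. MSTRG.16253 came next, at -1.56 (adjusted p = 0.490), but it was listed at 0 in every library but Vv plant 3. MSTRG.16287 (VIT_05s0094g00530), of uncharacterized product, was at 33.5, 37.3 and 40.9 FPKM in Vs hybrids, against 78.3, 83.0 and 104.6 FPKM in Vv plants. Its groups did not overlap, and the log2 difference was -1.22 (SE 0.22, adjusted p = 0.101), so that it did not pass the test.

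**Figure D2:**
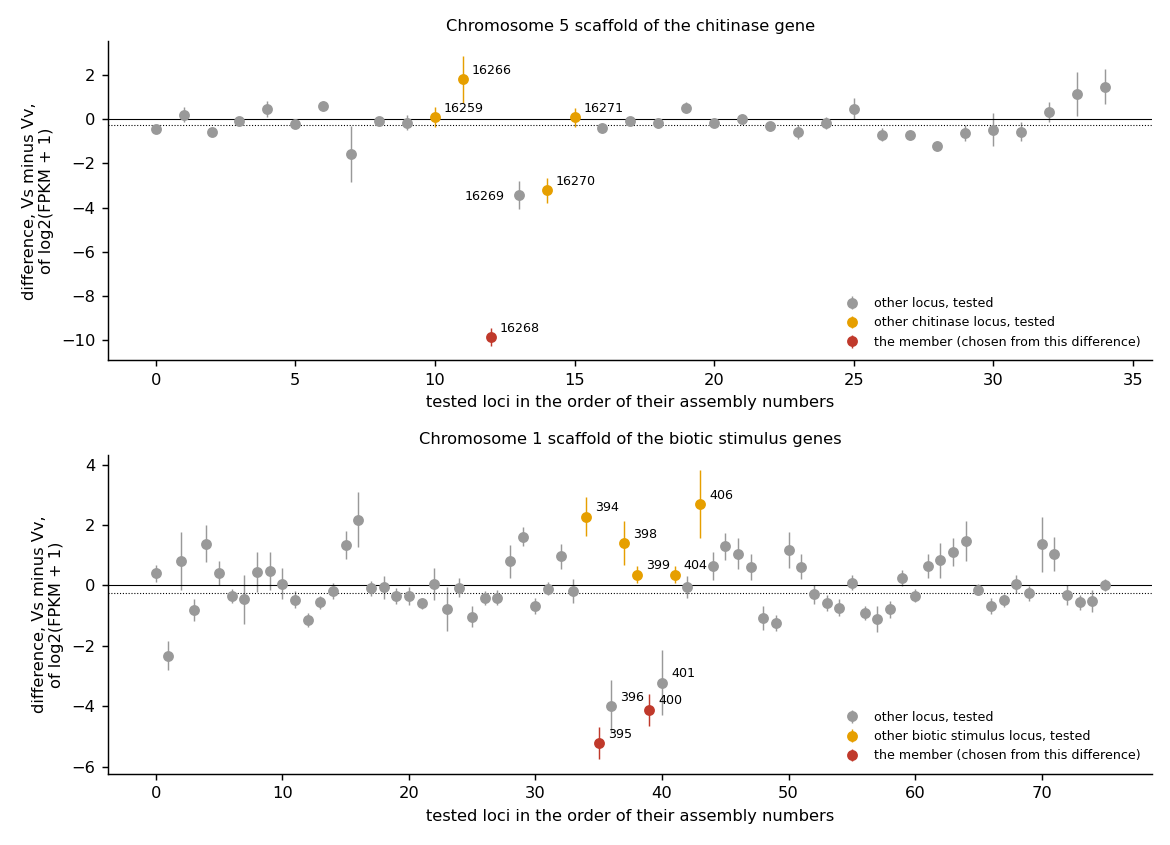
Difference of mean log2(FPKM + 1), Vs minus Vv, for the tested loci around the chitinase (upper panel) and around the biotic stimulus pair (lower panel), in the order of their assembly numbers, with SE bars from limma. The solid line is 0 and the dotted line the median of all genes tested, -0.25. MSTRG.16268, MSTRG.395 and MSTRG.400, in red, lie below -4, other loci of the same annotation are in orange, and MSTRG.394, MSTRG.398 and MSTRG.406 of the biotic stimulus array lie above 1, as several other loci of either panel do.

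The biotic stimulus pair belongs to an array of 8 listed loci with that annotation on chromosome 1. MSTRG.394 (VIT_01s0011g05060) was at 17.9, 18.4 and 7.15 FPKM in Vs hybrids, against 0.636, 6.399 and 1.18 FPKM in Vv plants (log2 difference 2.28, SE 0.64, adjusted p = 0.166). MSTRG.406 (VIT_01s0011g05180) was at 55.7, 53.0 and 25.8 FPKM in Vs hybrids, against 0, 17.2 and 15.5 FPKM in Vv plants (log2 difference 2.70, adjusted p = 0.244). In both, every Vs library was above every Vv library, which held for 5.55% of tested genes, and neither passed the test. MSTRG.398 (VIT_01s0011g05090) was at 22.8, 21.9 and 14.0 FPKM in Vs hybrids, against 4.51, 23.2 and 2.28 FPKM in Vv plants, where Vv plant 2 lay above all Vs hybrids (log2 difference 1.41, adjusted p = 0.304). The log2 differences of MSTRG.399 and MSTRG.404 were both 0.36, with adjusted p-values of 0.479 and 0.491. MSTRG.404 was at 50.5, 37.4 and 34.0 FPKM in Vs hybrids, against 22.5, 32.6 and 40.7 FPKM in Vv plants, so its groups overlapped.

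All 5 tested loci of the array other than the members had log2 differences above 0, with a median of 1.41, and limma called none of them. The sign of each held in every alternative in which the locus was tested. MSTRG.402, the remaining locus, was under the filter. It leaned with the members, at 0.309, 0.0408 and 0 FPKM in Vs hybrids, against 0.387, 0.434 and 1.56 FPKM in Vv plants. Summed over these 6 loci, FPKM was 149, 132 and 82.2 in Vs hybrids, against 28.7, 81.0 and 62.1 in Vv plants. The members made up 23.9%, 31.6% and 37.5% of the FPKM of the array in Vs hybrids, against 95.3%, 91.3% and 97.0% in Vv plants. Most of this was MSTRG.400, which alone held 78.1 to 93.9% of the array in Vv plants. In Vs hybrids the other loci together thus held more of the array than the members did, whereas MSTRG.400 held most of it in Vv plants. As a single locus MSTRG.400 was also the highest of the array in Vs hybrids 2 and 3, while MSTRG.406 and MSTRG.404 were above it in Vs hybrid 1.

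**Figure D3:**
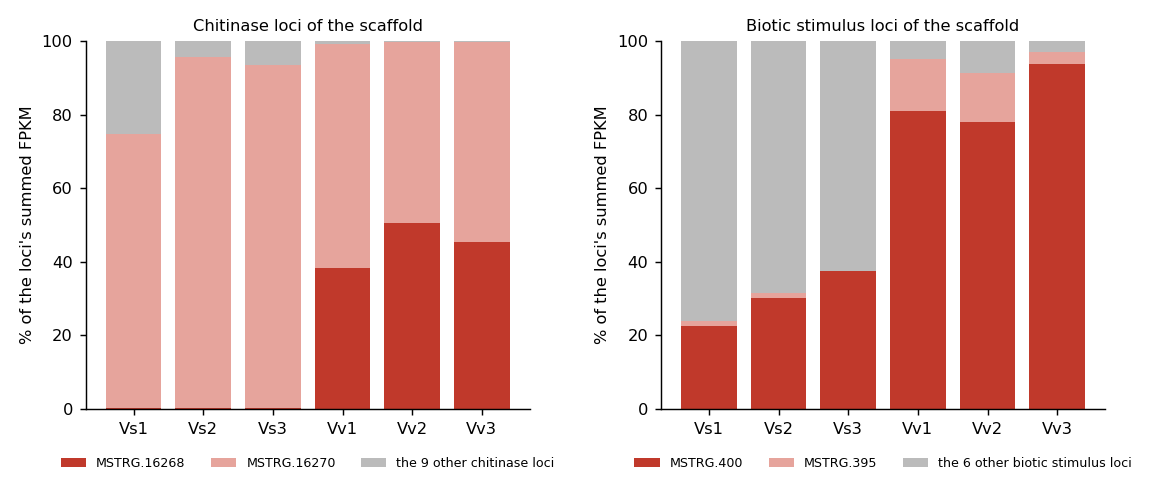
Share of the summed FPKM of the 11 chitinase loci (left panel) and of the 8 biotic stimulus loci (right panel) of each scaffold, by library, with Vs libraries left of Vv libraries. MSTRG.16268 is under 1% of its sum in Vs hybrids and 38.2 to 50.5% in Vv plants, and MSTRG.400 with MSTRG.395 is 23.9 to 37.5% in Vs hybrids and 91.3 to 97.0% in Vv plants.

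A pair of unannotated loci inside this array leaned with the members. MSTRG.396 was at 0, 0.806 and 0.420 FPKM in Vs hybrids, against 8.59, 10.5 and 94.6 FPKM in Vv plants (log2 difference -4.003, SE 0.88, adjusted p = 0.141). MSTRG.401 was at 0, 0.0343 and 0.247 FPKM in Vs hybrids, against 0.702, 16.0 and 35.4 FPKM in Vv plants (log2 difference -3.22, SE 1.07, adjusted p = 0.192). Neither was called with all libraries, although MSTRG.401 was called without Vv plant 1 (adjusted p = 0.0366). Both carry the tag VIT_01s0011g05120, as MSTRG.402 does. In the order of assembly numbers the loci that were low in Vs hybrids were interleaved with loci that were not, MSTRG.398 and MSTRG.399 lying between MSTRG.396 and MSTRG.400. By locus tag they were not interleaved, since the low loci of the array carry tags from VIT_01s0011g05110 to VIT_01s0011g05150. MSTRG.398 and MSTRG.399 carry tags before these, and MSTRG.404 and MSTRG.406 carry tags after them. Over the 96 listed loci around the pair, 74 were tested and none was called by limma. Of the 74 tested loci 21 had an unadjusted p under 0.05, against 20.9% of all tested genes, and the median log2 difference was -0.08. Reads of near-identical copies can be divided between loci by the assembly, and levels of single loci of these arrays are uncertain to that extent.

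Of the 27 listed chitinase genes other than the member 10 were tested, limma called none, and 1, MSTRG.16270 of the same scaffold, had an unadjusted p under 0.05. Outside the scaffold 17 were listed and 6 tested, and limma called none, with 0 at an unadjusted p under 0.05. Of these 6 genes 1 had a log2 difference above 0 and 5 below, with a median of -0.10. MSTRG.8218 was at 32.1, 23.1 and 11.3 FPKM in Vs hybrids, against 152, 8.49 and 7.18 FPKM in Vv plants, where Vv plant 1 stood far above the others. *CHIT1B* (MSTRG.13234), described as a chitinase, was at 22.1, 6.39 and 11.0 FPKM in Vs hybrids, against 15.4, 6.90 and 19.1 FPKM in Vv plants. MSTRG.2508 was at 3.64, 5.93 and 8.64 FPKM in Vs hybrids, against 4.96, 5.81 and 7.60 FPKM in Vv plants. In each of these the groups overlapped.

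In the wider biotic stimulus list no other gene passed the test. Of the 36 other listed genes, the array included, 21 were tested and none was called by limma. An unadjusted p under 0.05 was found for 6 of the 21, against 20.9% of all tested genes. Outside the array 30 were listed and 16 tested, of which 5 had an unadjusted p under 0.05, 7 lay above 0 and 9 below, with a median of -0.14. An MLO-like gene, MSTRG.21515, of a family of membrane proteins known in other plants for its part in powdery mildew susceptibility, was at 88.0, 69.6 and 54.5 FPKM in Vs hybrids, against 38.0, 56.5 and 30.6 FPKM in Vv plants. A locus described as a pathogenesis-related protein, MSTRG.15227, was at 24.6, 39.4 and 41.3 FPKM in Vs hybrids, against 152, 17.8 and 12.4 FPKM in Vv plants, with Vv plant 1 again highest. The groups of both genes overlapped.

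Among the genes that sense chitin, *CERK1* (MSTRG.3248) was the only one listed under the search terms. It was at 8.18, 7.17 and 7.61 FPKM in Vs hybrids, against 14.6, 11.9 and 11.9 FPKM in Vv plants, without overlap (log2 difference -0.67, SE 0.18, adjusted p = 0.161), and did not pass the test. Of 30 listed genes of defense signalling 21 were tested, none was called by limma, 1 had an unadjusted p under 0.05, and the median was -0.30. *WRKY40*, a transcription factor of pathogen responses in Arabidopsis, was at 194, 48.2 and 13.9 FPKM in Vs hybrids, against 30.0, 28.2 and 3.57 FPKM in Vv plants. *PAD4*, a lipase-like partner of EDS1 in Arabidopsis immunity, was at 41.8, 26.6 and 5.81 FPKM in Vs hybrids, against 21.5, 8.07 and 3.98 FPKM in Vv plants. Both were highest in Vs hybrid 1, and the groups overlapped. *WRKY58* was at 26.3, 28.3 and 27.0 FPKM in Vs hybrids, against 46.1, 35.1 and 33.3 FPKM in Vv plants, without overlap, and was not called. As in *CERK1* and *WRKY58*, all Vs libraries were below all Vv libraries in 26.2% of all tested genes.

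Few other effectors of the antifungal response were found by annotation, and those named here were expressed at low levels. Searches for thaumatin and for pathogenesis-related protein 1 matched no gene, so these effectors are not covered. All 4 beta-1,3-glucanase genes, whose products cut the glucan of fungal walls, were tested and had log2 differences below 0, with a median of -0.56, and limma called none while 2 had an unadjusted p under 0.05. One of them, MSTRG.437, stands near the biotic stimulus pair (VIT_01s0011g05500) and was at 2.90, 2.01 and 2.298 FPKM in Vs hybrids, against 3.39, 6.45 and 3.75 FPKM in Vv plants. Of 7 lipid transfer protein genes 3 were tested, and 1 was called lower in Vs hybrids, against 0.22% of all tested genes. This gene, MSTRG.19016, was at 2.83, 2.299 and 2.94 FPKM in Vs hybrids, against 15.1, 11.4 and 10.4 FPKM in Vv plants (log2 difference -1.84, SE 0.21, adjusted p = 0.0334). The call of MSTRG.19016 was lost with the replicate number as a block (adjusted p = 0.147), without the filter (0.0733), with median-ratio scaling (0.0555) and when any 1 library was left out (0.0710 to 0.176). *STS* (MSTRG.8025), a stilbene synthase gene of phytoalexin synthesis, was at 0.386, 1.17 and 0.575 FPKM in Vs hybrids, against 11.99, 1.18 and 0.110 FPKM in Vv plants.

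Of the 29 genes listed under defense response to fungus 25 were tested, and of the 35 under defense response to bacterium 33 were tested, and limma called none of either. At an unadjusted p under 0.05 there were 3 and 5, and the medians were -0.21 and -0.15, close to that of all tested genes. Under the broad term defense response, which holds MSTRG.395 and MSTRG.400, 112 other genes were tested, with a median log2 difference of -0.13. Against 0.44% called among all tested genes, 1 of these 112 was called. This was MSTRG.10689 (VIT_18s0117g00070 and VIT_18s0117g00080), annotated with ADP binding as plant NB-LRR immune receptors are. It was at 0.0620, 0.0683 and 0.153 FPKM in Vs hybrids, against 7.69, 8.79 and 4.77 FPKM in Vv plants (log2 difference -2.85, SE 0.27, adjusted p = 0.0164). Its call was lost with the replicate number as a block (adjusted p = 0.131), without the filter (0.0501) and when any library but Vv plant 3 was left out (0.0523 to 0.0987). MSTRG.952 was at 4.16, 6.16 and 744 FPKM in Vs hybrids, against 228, 2032 and 5487 FPKM in Vv plants, with overlap and an adjusted p of 0.225.

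**Figure D4:**
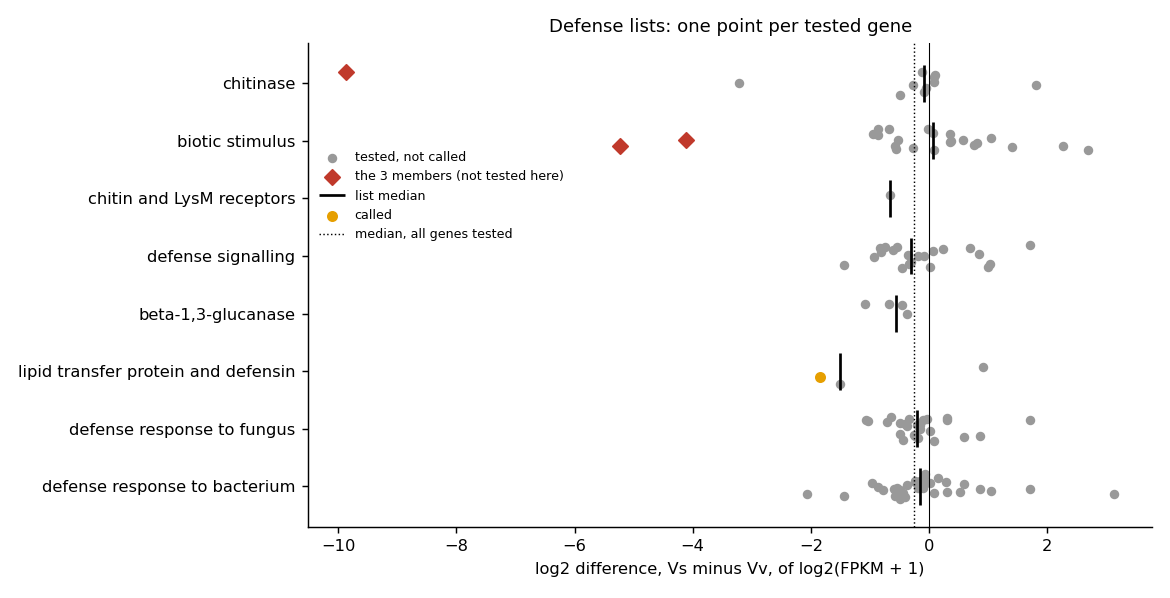
Difference of mean log2(FPKM + 1), Vs minus Vv, for every tested gene of 8 annotation lists. Grey points were not called, the orange point is MSTRG.19016, red diamonds are the 3 members, bars are list medians and the dotted line is the median of all genes tested, -0.25. The members were chosen by this difference, so their place at the low end is no result. MSTRG.16270 of the chitinase list lies at -3.23. The medians of the chitinase and biotic stimulus lists are -0.09 and 0.06 with the members included.

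Markers of the pooled organs differed between single plants, and those of leaf also between the groups. The 16 antenna protein genes that mark leaf summed to 8002, 6613 and 10896 FPKM in Vs hybrids, against 6483, 5756 and 909 FPKM in Vv plants. Every Vs sum was thus above every Vv sum. Of 15 tested leaf genes 14 had log2 differences above 0, with a median of 1.36, and MSTRG.1533 lay at -8.24. In 8 of the 15, all Vs libraries were above all Vv libraries, against 5.55% of all tested genes. The 4 ripening genes that mark berry summed to 57.9, 402 and 126 FPKM in Vs hybrids, against 61.5, 643 and 1360 FPKM in Vv plants. All 4 had log2 differences below 0, with a median of -0.73 and overlapping groups. Vv plant 3 was thus lowest in leaf genes and highest in berry genes, and it was also highest in MSTRG.400, MSTRG.16268 and MSTRG.16270. MSTRG.395, at 64.4 FPKM in Vv plant 3, was lowest there among the Vv plants. Vs hybrid 1 and Vv plant 1 had like berry sums, with MSTRG.16268 at 0.239 and 717 FPKM. This is 1 plant of each group, and the chitinase was chosen for its difference, so nothing is read from it. The ripening-induced gene MSTRG.15765 was listed at 0 in Vs hybrid 1 and Vv plant 1. The 6 phloem genes summed to 15.9, 32.4 and 31.96 FPKM in Vs hybrids, against 18.7, 19.6 and 23.7 FPKM in Vv plants. The part of organ proportions in the levels of the 3 members was not tested.

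The genes most like each member over the 6 libraries were far below it in level in Vv plants. By Pearson r of log2(FPKM + 1), a description over libraries that share the same groups, those nearest to the chitinase MSTRG.16268 were MSTRG.17990, MSTRG.12881, MSTRG.21629, MSTRG.18840 and MSTRG.13322, with r between 0.995 and 0.999. MSTRG.17990 was listed at 0 in Vs hybrids and at 3.17, 3.98 and 4.65 FPKM in Vv plants. Those nearest to MSTRG.395 were MSTRG.4472, MSTRG.22686, MSTRG.981, MSTRG.5928 and MSTRG.18560, and the first of them was at 4.27, 4.22 and 4.02 FPKM in Vs hybrids, against 5.21, 5.47 and 5.26 FPKM in Vv plants. For MSTRG.400 they were MSTRG.9097, MSTRG.8659, MSTRG.17558, MSTRG.12525 and MSTRG.19328. Of these, MSTRG.12525 was at 0.210, 0.877 and 0.517 FPKM in Vs hybrids, against 9.27, 14.6 and 29.2 FPKM in Vv plants, with the same order of Vv plants as MSTRG.400. None of the 15 is in the chitinase or biotic stimulus lists. Between members r was 0.96 for MSTRG.16268 with MSTRG.395, 0.97 with MSTRG.400, and 0.92 for MSTRG.395 with MSTRG.400. All members were chosen for lower levels in Vs hybrids, so a high r between them was fixed by the choice and nothing is read from it.

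The small RNA and degradome tables hold measurements that did not enter the choice of the members. The degradome is 1 pool of all 6 plants, so it compares nothing, and records the ends of cut transcripts at predicted miRNA sites. None of its 8858 entries lay on any of the 7 transcripts of the members. The entries covered 5310 transcripts, while the expression table lists 25819 genes, so most genes have no entry and nothing is read from this. The other chitinase genes had 10 entries on 3 genes and the other biotic stimulus genes 9 entries on 5 genes, and none of these was marked as detected in the degradome. Within the neighbourhoods of the members 18 of 69 entries were detected, against 1559 of all 8858 entries. They lay on 2 genes, and most were repeated entries on MSTRG.439. The sequences below are a predicted partner of the chitinase locus MSTRG.16271, one of MSTRG.16270, and one of the strongest detected site near the biotic stimulus pair, with bases 2 to 8 in capitals.
vvi-miR167b: tGAAGCTGccagcatgatcta
PC-5p-2905396_2: tGATAGTAattttgaaaagtattt
ppe-miR169d: tGAGCCAAggatgacttgcca

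The site of vvi-miR167b on MSTRG.16271 had an alignment score of 3.5, where a lower score means closer pairing, and was not detected. This miRNA was at 1117, 1462 and 1674 after scaling to 1000000 listed miRNA counts in Vs hybrids, against 2087, 3369 and 2518 in Vv plants, so the groups did not overlap, with no test made. MSTRG.16271 itself had overlapping levels in the groups, as given above. The small RNA PC-5p-2905396_2, predicted on MSTRG.16270 with a score of 4, had an estimated count of 1, 1 and 2 in Vs hybrids, against 1, 1 and 4 in Vv plants, which is too few to compare. The detected site was on MSTRG.439 (VIT_01s0011g05560), annotated with the regulation of jasmonic acid signaling, with 248 degradome reads in category 0, the class in which the site has the most reads of its transcript. Other miR169 forms are assigned to the same site. On the same scale ppe-miR169d was at 40.5, 11.6 and 17.8 in Vs hybrids, against 10.9, 40.2 and 13.6 in Vv plants. The form vvi-miR169l_L+1R-1 was higher, at 1025, 588 and 1329 in Vs hybrids, against 937, 3216 and 206 in Vv plants. MSTRG.439 was at 151, 135 and 121 FPKM in Vs hybrids, against 161, 152 and 92.4 FPKM in Vv plants, so its groups overlapped.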

How the data were processed

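RNA-seq reads of 6 libraries were mapped with HISAT to *V. vinifera* and the deposited FPKM values were estimated by the authors with StringTie 1.3.4. Which genome build was used is not given in the sources. The small RNA table holds estimated counts deposited by the authors, named after miRBase 21.0 and divided among loci, which were summed here per sequence and scaled to 1000000 listed counts per library. The degradome table, made by the authors with CleaveLand 3.0, holds read counts at sites and an alignment score, both used as deposited. Read depth per gene is not kept in FPKM, so no counting interval is given. Replicates are separate plants.

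FPKM was tested with limma 3.58.1 (R 4.3.3, eBayes with trend) on log2(FPKM + 1), Vs minus Vv, over the 15447 genes that averaged 1 FPKM or more, with Benjamini-Hochberg adjustment over all of them, and genes were called at an adjusted p under 0.05. Fold changes on this scale understate those of low genes. The script was tested on simulated data. FPKM summed to 520529 to 582510 in Vs libraries and 439752 to 461260 in Vv libraries, and 21471 to 22154 genes were above 0. The members and lists were chosen with earlier results of these data known. Neighbours are loci whose tag number is within 500 of a member's on the same scaffold, or 50 places. Lists were made from the annotation in the table, and searches for thaumatin and for pathogenesis-related protein 1 matched no gene. The genes named are the members, neighbours within 5 places, list genes that were called or among the 6 of highest mean FPKM, the 5 genes of highest r with each member and the genes next to each member in log2 difference. Some were left out for length, and MSTRG.437, MSTRG.439, MSTRG.369, MSTRG.16253, MSTRG.16287 and the sequences were chosen after their values were seen.

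The pairing of values with gene identifiers follows the deposited table. The study also gives the values of the chitinase under another assembly identifier, with the same enzyme number and description. With the deposited pairing all 43 tested proteasome genes lay below 0 and the 16 antenna genes summed to 909 to 10896 FPKM. The study reports most of its changed light-harvesting genes as lower in Vs hybrids, and *GAI1* (MSTRG.412) as higher. Here 14 of 15 tested antenna genes lay above 0. *GAI1* was listed at 0 in every Vs library and at 3.77 FPKM in Vv plant 3. These values therefore do not settle the pairing, and the cause of the disagreement was not tested. Alternatives were another pseudocount (0.1), no filter, a mean of at least 5 FPKM, median-ratio scaling, quantile normalization, no trend, a replicate block and leaving out each library.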

Additional observations from a re-analysis of the deposited data

How the results depend on the processing

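The count of 68 called genes was 35 without the filter and 45 with a mean of at least 5 FPKM, and ranged from 19 to 73 when 1 library was left out (20 without Vs hybrid 2, 41 without Vv plant 1, 19 without Vv plant 2 and 43 without Vv plant 3). The split of 34 higher and 34 lower became 38 and 15 with median-ratio scaling and 35 and 17 with quantile normalization. Replicate numbers only name plants: deviations of same-numbered plants correlated at 0.17, -0.05 and 0.04, and Vs hybrids 2 and 3 correlated best with another number. With the replicate block 8 genes were called, and no other chitinase gene, biotic stimulus gene or neighbour, and the calls of MSTRG.19016 (adjusted p = 0.147) and MSTRG.10689 (0.131) were lost. No other chitinase or biotic stimulus gene was called in any alternative. The count of called neighbours ranged from 0 to 1 when 1 library was left out, namely MSTRG.369 without Vs hybrid 3 and MSTRG.401 without Vv plant 1, where its log2 difference was -4.51. With a pseudocount of 0.1 the log2 difference was -11.47 for MSTRG.16268 and -6.38 for MSTRG.395, and their other values and all those of MSTRG.400 moved by less than the spread between plants. The sign of small differences turned for MSTRG.16271 (range -0.38 without Vs hybrid 1 to 0.39 without Vs hybrid 3), for MSTRG.16273 (0.18 with median-ratio scaling and 0.14 with quantile normalization) and for MSTRG.405, a neighbour at -0.06 (0.13 with median-ratio scaling, 0.061 with quantile normalization, and -0.37 without Vv plant 1 to 0.28 without Vv plant 2). The cause of these changes was not tested. Depth per gene is unknown, so levels under 1 FPKM in Vs hybrids are not told apart from each other here.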
